A study of Mus musculus with 16 samples.

Results

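The transcripts of 6 genes, *Gsk3b*, *Map3k1*, *Paip1*, *Zbtb38*, *Gnaq* and *Ncs1*, were among those most enriched when RNA of mouse erythroid progenitors was captured with an antibody against N6-methyladenosine (m6A). They were found by symbol among the 13490 genes of the m6A table and the 15386 genes of the RNA-seq table, and all 6 passed the filter on low counts in both. They were chosen for the ratio of m6A immunoprecipitate (IP) over input, so that ratio is described here without a test. The RNA-seq comparison did not enter the stated choice and was tested. Earlier results of these data were known when the genes were chosen, however, and *Gnaq* and *Ncs1* were not picked by rank alone. Their RNA-seq p-values may therefore not be independent of the choice.

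The cells were CFU-E cells, late committed progenitors of red blood cells, sorted from the bone marrow of male and female mice aged 10 to 16 weeks on a C57BL/6 background. The m6A libraries came from control CFU-E (2 IP and 2 input), and the RNA-seq libraries from control CFU-E (3) and from CFU-E labelled *Mettl3*-deficient and Kit-low (3), called CFU-E Kit-lo below. *Mettl3*-deficient mice were *Mettl3* fl/fl and carried a single copy of the *EpoR*-tdTomato-Cre allele. This Cre also recombines in macrophages of the erythroblastic island, and the paper states that *EpoR* is expressed in hematopoietic stem cells too. The genotype of the controls is not given in the sources used here. Kit is the receptor for stem cell factor, and CFU-E Kit-lo are the *Mettl3*-deficient CFU-E with the least of it on their surface. Genotype and Kit level therefore cannot be told apart as sources of a difference between the groups. Whether libraries of a group came from separate animals is not stated, so the spread between them, which the p-values rest on, may be technical.

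METTL3 is the catalytic subunit of the complex that writes m6A on messenger RNA as it is made. The mark lies mainly near stop codons, in 3′ UTRs and in long internal exons. Reader proteins that bind it can speed the decay of a transcript or change its translation, and the mark can also stabilize a transcript. The complex favors an adenosine in a short consensus whose commonest core is written GGACT in DNA letters. Gsk3b is a kinase that marks beta-catenin for destruction, and Map3k1 is a kinase at the top of the JNK cascade. Paip1 binds the poly(A)-binding protein and promotes translation, and Zbtb38 is a zinc finger protein that binds methylated CpG. Gnaq is the alpha subunit of the Gq protein, which links receptors to phospholipase C beta, and Ncs1 is a calcium sensor with EF hands.

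The consensus core was looked up in the annotated transcript of each gene with the longest coding sequence. All 6 transcripts held GGACT, as did 91.0% of the 11419 genes of the m6A table with an annotated transcript, so the letters alone did not set these genes apart. The occurrence nearest the coding end whose window lies within a single exon is shown for each gene, with 8 flanking bases on either side and GGACT in capitals, because these are the letters that METTL3 most often methylates. For *Gsk3b*, the window from its longest transcript is shown too, since that transcript has a far longer 3′ UTR.
Gsk3b, coding sequence: ctggtgctGGACTatgttccg
Gsk3b, 3′ UTR of the longest transcript: ctcaccagGGACTtactgtca
Map3k1, 3′ UTR: ctttcacaGGACTggctctgg
Paip1, coding sequence: gaaagagaGGACTtttttcca
Zbtb38, 3′ UTR: gagaatgaGGACTgctgtaga
Gnaq, 3′ UTR: aacaagagGGACTgtatttct
Ncs1, coding sequence: ttcattaaGGACTgccccagc

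These windows lie on GRCm38, read on the strand of the gene. The coding window of *Gsk3b* lies at chr16:38184456-38184476 on the plus strand, in exon 4 of 12, and its 3′ UTR window at chr16:38241061-38241081, in the last of the 11 exons of the longest transcript. That of *Map3k1* lies at chr13:111748654-111748674 on the minus strand, in exon 20 of 20. That of *Paip1* lies at chr13:119455725-119455745 on the plus strand, in exon 10 of 11, and that of *Zbtb38* at chr9:96684712-96684732 on the minus strand, in exon 6 of 6. That of *Gnaq* lies at chr19:16383445-16383465 on the plus strand, in exon 7 of 7. That of *Ncs1* lies at chr2:31280676-31280696 on the plus strand, in exon 3 of 8. A match is a description of the letters and not a methylated site. The IP was done on unfragmented RNA and the libraries were read from the 3′ end, so the ratio belongs to a whole transcript and gives no position of m6A.

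All 6 transcripts were higher in both IP libraries than in either input library, as were 32.2% of the 11447 genes tested. At an adjusted p under 0.05 in edgeR, 7.9% of those genes were higher and 7.86% lower in IP, shares from which nothing is read about genes chosen on this ratio. Values are CPM, the counts of a gene relative to those of its library, scaled by TMM, edgeR's normalization for library composition. They are not scaled for transcript length and are not to be compared between genes. *Gsk3b* had 9.83 and 13.9 CPM in the input libraries and 358 and 262 CPM in the IP libraries of replicates 1 and 2, which came from 223 and 248 input counts and 14934 and 5222 IP counts. Its log2 ratio of IP over input was 4.71 (SE 0.29, n = 2 and 2), a 26.2-fold enrichment. *Map3k1*, in the same order, had 1.10 and 2.53 CPM in input and 41.6 and 19.7 CPM in IP, a log2 ratio of 4.11 (SE 0.47). Its input level rested on 25 and 45 counts, the fewest of the 6, and its IP libraries also differed most.

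*Paip1* had 9.79 and 17.4 CPM in the input and 206 and 178 CPM in the IP libraries, a log2 ratio of 3.82 (SE 0.31). *Zbtb38* had 14.1 and 33.4 CPM in the input and 225 and 179 CPM in the IP libraries, a log2 ratio of 3.09 (SE 0.37). The input level of *Zbtb38* differed more between the replicates than its IP level did. *Gnaq* had 4.01 and 10.01 CPM in the input and 51.2 and 40.2 CPM in the IP libraries, a log2 ratio of 2.72 (SE 0.39). *Ncs1* had 2.12 and 3.65 CPM in the input and 17.8 and 13.1 CPM in the IP libraries, a log2 ratio of 2.43 (SE 0.35), or 5.40-fold. The ratios fell from *Gsk3b* to *Ncs1*, and neighbors in that order differed by less than 2 times the larger of their standard errors. Leaving out single libraries moved the log2 ratio between 3.45 and 4.79 for *Map3k1*, 2.57 and 3.83 for *Zbtb38* and 2.17 and 3.50 for *Gnaq*. The lowest value came without IP replicate 1 for *Map3k1* and without input replicate 1 for the other two, and the highest came without input replicate 2 for all 3. Each of the 6 genes had a lower mean in input than in the RNA-seq of control CFU-E, whose libraries were prepared differently. The means were 11.9 and 74.6 CPM for *Gsk3b*, 1.82 and 47.0 for *Map3k1*, and 13.6 and 29.7 for *Paip1*. They were 23.7 and 148 CPM for *Zbtb38*, 7.01 and 25.2 for *Gnaq*, and 2.88 and 20.3 for *Ncs1*. The part of low input levels in the ratios was not tested.

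**Figure D1:**
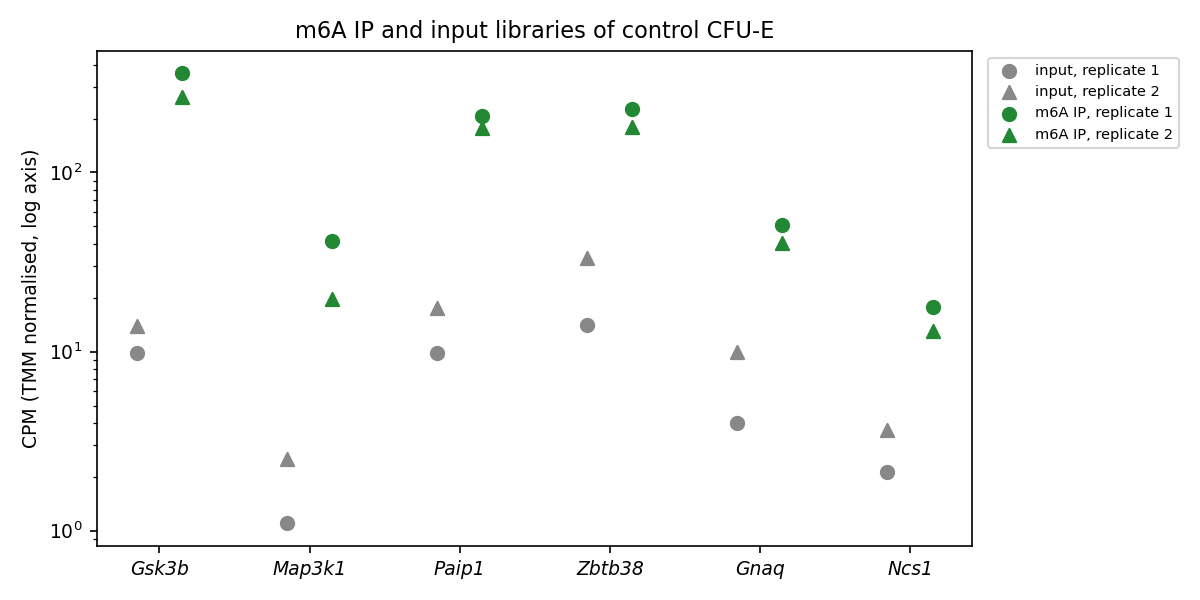
CPM of the 6 genes on a log axis in the input (gray) and m6A IP (green) libraries of control CFU-E, with circles for replicate 1 and triangles for replicate 2. Every IP point lies above both input points of its gene, and replicate 1 is lower in input and higher in IP for all 6 genes.

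Taken by replicate number, the ratio was larger with number 1 than with number 2 in 6 of 6 genes. The log2 ratios ran from 3.07 to 5.24 with number 1 and from 1.84 to 4.23 with number 2. They lay farthest apart for *Map3k1*, at 5.24 and 2.96, and nearest for *Gsk3b*, at 5.19 and 4.23. Those gaps are wide beside the SEs of 0.47 and 0.29, which edgeR derived with information from all genes. The 100 genes with the largest ratios, chosen on the mean of both, had medians of 2.49 and 1.54 and were also all larger with number 1. Over all 5400 genes whose log2 CPM averaged 4 or more the ratio was larger with number 1 in 46.3%, and its SD over genes was 0.96 with number 1 and 0.83 with number 2. IP replicate 1 was also the deepest of the 4 m6A libraries, with 37142742 counts against 19421059 to 23160909 in the others, and the part of depth in this difference was not tested.

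The ranking placed the 6 genes high but not at the top in every case. Among all 11447 genes tested, *Gsk3b* ranked 10th by ratio, *Map3k1* 13th, *Paip1* 16th, *Zbtb38* 25th, *Gnaq* 50th and *Ncs1* 70th. The 9 genes above *Gsk3b* had 0 or 1 counts in each input library. When a mean log2 CPM of 4 or more was required, *Gsk3b*, *Map3k1*, *Paip1* and *Zbtb38* ranked 1, 2, 3 and 5, *Gnaq* ranked 12 and *Ncs1*, with an average of 3.23, fell below that minimum. *Map3k1* was just above it, at 4.05. The ratio rank therefore accounted for 4 of the 6 genes among the 10 largest, and *Gnaq* and *Ncs1* were not picked by rank alone.

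The other genes among the 10 largest ratios were *Gm42715*, *Sept2*, *Ccdc6*, *Zfp780b*, *Cdv3* and *Phactr2*. *Gm42715* stood between *Paip1* and *Zbtb38*, at a log2 ratio of 3.20 (SE 0.30). *Sept2*, a septin of the cytoskeleton, came just after *Zbtb38*, at 2.997 (SE 0.30), and rested on much deeper counts, with 1447 and 1814 in input. *Ccdc6* followed at 2.88, *Zfp780b* at 2.80, *Cdv3* at 2.78 and *Phactr2* at 2.72. Their log2 fold changes in the RNA-seq described below ran from -0.54 for *Gm42715* to 0.10 for *Phactr2*, short of the fold required for a call.

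**Figure D2:**
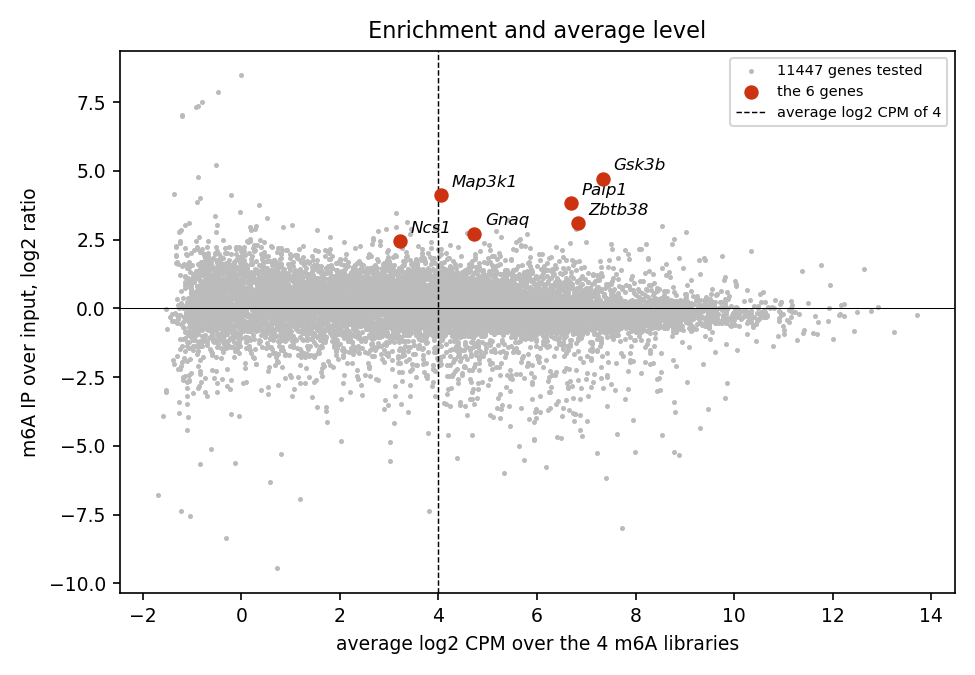
Log2 ratio of IP over input (vertical) against the average log2 CPM of the 4 m6A libraries (horizontal) for the 11447 genes tested, with the 6 genes in red and a dashed line at an average of 4. *Gsk3b*, *Paip1* and *Zbtb38* combine a high ratio with a high level, and *Ncs1* lies left of the line.

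Properties of the transcripts that had no part in the choice were then compared with those of the other genes. Long 3′ UTRs were found in 4 of them, with 4069 bases in *Gnaq*, 3724 in *Ncs1*, 2666 in *Zbtb38* and 2472 in *Map3k1*, at percentiles 93.0, 91.3, 83.1 and 81.1 of the genes of the m6A table. *Gsk3b* and *Paip1* had 210 and 276 bases in the transcript with the longest coding sequence. In their longest annotated transcripts, however, they had 5515 and 1137 bases, at percentiles 96.1 and 49.5. The median 3′ UTR was 934 bases over all genes and 2229 bases over the 99 of the 100 most enriched genes that had an annotated transcript.

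The number of GGACT in the whole transcript was 8 in *Map3k1* and *Zbtb38*, 5 in *Ncs1*, 3 in *Gnaq*, 2 in *Gsk3b* and 1 in *Paip1*, against a median of 3 over all genes. In the 3′ UTR alone it was 4 in *Zbtb38* and *Ncs1*, 3 in *Gnaq*, 2 in *Map3k1* and 0 in *Gsk3b* and *Paip1*, and 57.4% of all genes had at least 1 there. The longest transcript of *Gsk3b* held 8 in its 3′ UTR. Per kilobase of transcript, the 6 genes had between 0.53 and 1.15, around the median of 1.03. Over the whole transcript, the counts above the median were thus those of long transcripts, not of transcripts dense in the motif. In the 3′ UTR alone, *Zbtb38*, *Ncs1*, *Map3k1* and *Gnaq* had more GGACT per kilobase than the median of 0.61. They lay at percentiles 76.7, 66.1, 57.1 and 54.5, in that order. *Gsk3b* and *Paip1* had 0 there in the transcript with the longest coding sequence.

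Coding lengths ran from 573 bases in *Ncs1* to 4482 in *Map3k1*, at percentiles 11.9 and 94.9. GC content was below the median of 50% in 5 of the 6 and above it in *Ncs1*, at 54.5%. Across the 11419 genes, which are not independent replicates, the log2 ratio had a Spearman correlation of 0.33 with transcript length, 0.22 with 3′ UTR length and -0.33 with GC content, and of -0.07 with GGACT per kilobase.

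**Figure D3:**
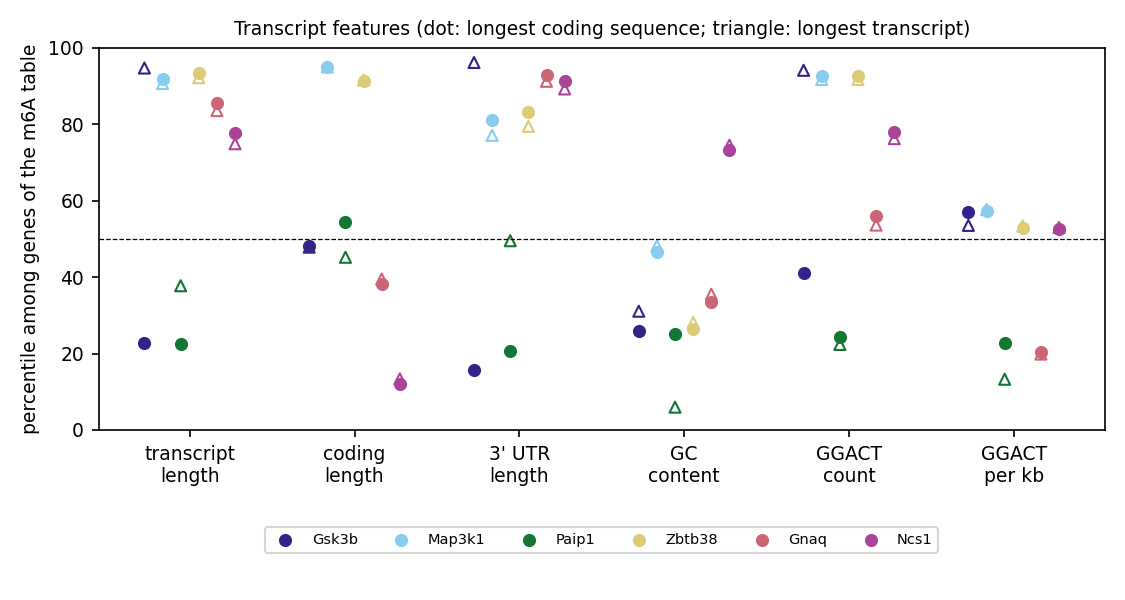
Percentile of each of the 6 genes among the genes of the m6A table for 6 transcript features, with dots for the transcript with the longest coding sequence and open triangles for the longest transcript. 3′ UTR lengths are high for 4 genes under both choices, and *Gsk3b* moves from percentile 15.7 to 96.1. The number of GGACT per kilobase of whole transcript lies near or below the middle.

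The RNA-seq comparison asked whether transcripts captured this strongly differ between control CFU-E and CFU-E Kit-lo, which differ in both genotype and Kit level. Library totals were 17429262 to 21329242 counts. *Kit* was lower in CFU-E Kit-lo, at 55.2 ± 12.4 CPM against 598 ± 47.1 CPM in controls (SD, n = 3 each), which is the receptor by which the cells were sorted. *Mettl3* had 115, 123 and 130 CPM in controls and 117, 127 and 108 CPM in CFU-E labelled *Mettl3*-deficient, so its level did not set the groups apart (log2 fold change -0.07, SE 0.10, adjusted p = 0.634). The values count the whole gene and not the deleted part, which is not given in the sources used here, and 18.4% of its exonic bases overlap *Tox4* on the opposite strand. In these tables the genotype therefore rests on the labels. The 6 CFU-E markers summed to 3030 to 3126 CPM in controls and 3028 to 3169 CPM in CFU-E Kit-lo. By the call defined below, 2 of these 6 rose and 1, *Kit*, fell, with a median log2 fold change of 0.33. The flat sum therefore combines opposite changes. The 6 late erythroid markers summed to 164 to 191 CPM and 1547 to 2612 CPM, and the 6 early progenitor markers (5 in the table) to 184 to 204 CPM and 25.2 to 27.9 CPM. Of the lists for other cells, granulocyte markers summed to 19.9 to 29.4 CPM in controls and 4.90 to 14.7 CPM in CFU-E Kit-lo, megakaryocyte markers to 4.31 to 6.63 CPM and 6.73 to 16.02 CPM, and macrophage markers to 5.55 to 9.90 CPM and 6.18 to 7.82 CPM, with *Adgre1* at 0 in CFU-E Kit-lo. The part of these differences in the changes below was not tested.

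The 6 genes did not move together. *Map3k1* rose, *Gnaq* and *Ncs1* fell, and *Gsk3b*, *Paip1* and *Zbtb38* did not reach the call, which required a fold of at least 1.5 and an adjusted p under 0.05 in edgeR's quasi-likelihood test over all 11979 genes. By that rule 22% of all genes were called, with 12.1% higher and 9.83% lower in CFU-E Kit-lo. The groups did not overlap for 5 of the 6 genes and for 47.5% of all genes, with 2 of the 6 (23.5% of all) higher and 3 (24% of all) lower in CFU-E Kit-lo. Each adjusted p below comes from this edgeR test, and those of *Gnaq* and *Ncs1* may not be independent of how these genes were chosen. In bulk libraries, fewer cells of a type and less RNA per cell cannot be told apart.

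*Gsk3b*, the gene with the largest ratio, had 80.3, 68.1 and 75.3 CPM in the control libraries and 56.7, 62.9 and 44.4 CPM in CFU-E Kit-lo. Every CFU-E Kit-lo library lay below every control, and the log2 fold change was -0.45 (SE 0.14, 95% interval -0.76 to -0.14, adjusted p = 0.0304), short of the required fold. The adjusted p in edgeR was 0.0624 when scaled by library size only, 0.115 without control replicate 1 and 0.094 without control replicate 3. Leaving out replicate 3 of CFU-E Kit-lo gave a log2 fold change of -0.30 (edgeR, adjusted p = 0.0736). Of 20 listed genes of the beta-catenin pathway, 18 were tested, 1 rose and 3 fell, against 12.1% and 9.83% of all genes. *Axin1*, the scaffold of the destruction complex, rose 1.58-fold. *Frat1* and *Frat2*, which bind GSK3 and hold it away from that complex, fell 1.62-fold and 2.44-fold, and *Akt2*, a kinase that inhibits GSK3, fell 1.61-fold. *Akt1*, on the same list and named after its values were seen, went the other way. Its groups did not overlap, and its log2 fold change was 0.46 (SE 0.12, adjusted p = 0.0153 in edgeR), short of the required fold. The median log2 fold change of the list was -0.13, against 0.01 over all genes.

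*Map3k1* had 44.8, 42.3 and 54.0 CPM in the controls and 76.3, 68.5 and 72.7 CPM in CFU-E Kit-lo. The groups were well apart, and the log2 fold change was 0.62 (SE 0.12, adjusted p = 0.00287). At 1.54-fold the rise sat just above the required fold. It fell below 1.5-fold without control replicate 2 (log2 fold change 0.55) or CFU-E Kit-lo replicate 1 (0.58), and was not called when tested against that fold (adjusted p = 0.667, with edgeR and DESeq2 alternatives from 3.43e-05 to 0.667). In the JNK cascade, 16 of 17 listed genes were tested, and 1 rose and 3 fell, against 12.1% and 9.83% of all genes. The median of the list was -0.19. *Jun*, the transcription factor at the end of the cascade, fell 5.87-fold, from 1144 ± 114 to 195 ± 58.5 CPM (SD, n = 3 each). *Atf2*, another target of JNK, fell 1.96-fold, *Mapk9*, which encodes JNK2, fell 1.65-fold, and *Map3k4*, a kinase at the same tier as Map3k1, rose 1.58-fold.

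*Paip1* had 32.1, 26.5 and 30.5 CPM in the controls and 27.5, 25.01 and 26.5 CPM in CFU-E Kit-lo. It was the only one of the 6 whose groups overlapped, and its log2 fold change was -0.18 (SE 0.13, 95% interval -0.47 to 0.12, adjusted p = 0.352). That interval leaves out a fall of 1.5-fold, which would be -0.58. Among the 18 listed genes of the poly(A)-binding protein and cap complex, 1 rose and 4 fell, against 12.1% and 9.83% of all genes. The median of the list was -0.20. *Pabpc1*, the poly(A)-binding protein to which Paip1 binds, fell 1.56-fold. The helicase subunit *Eif4a2* and its cofactor *Eif4b* fell 1.67-fold and 1.87-fold, and *Paip2b*, an inhibitor of poly(A)-binding protein, fell 1.69-fold. *Tob1*, an adaptor of deadenylation, rose 2.28-fold at a low level.

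*Zbtb38* had 154, 144 and 146 CPM in the controls and 205, 200.5 and 181 CPM in CFU-E Kit-lo. The groups did not overlap, and the log2 fold change of 0.40 (SE 0.08, 95% interval 0.21 to 0.59, adjusted p = 0.00452) was positive but below the required fold. Over all genes, 22% were called in edgeR's test. Of the 13 listed genes for other readers of methylated CpG and partners of Zbtb38, 0 were called in that test and 0 in DESeq2's. The median of these 13 was 0.08. In edgeR, 2 had an unadjusted p under 0.05. These were *Rbbp6* (log2 fold change 0.50, SE 0.13, adjusted p = 0.0144) and *Uhrf1* (0.25, SE 0.08, adjusted p = 0.0363), named after their values were seen, which missed only the required fold. *Zbtb33* (Kaiso) and *Zbtb4*, its closest relatives, had log2 fold changes of 0.25 (SE 0.34) and 0.77 (SE 0.37), with adjusted p of 0.623 and 0.146 at fewer than 7.1 CPM in each library.

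*Gnaq* had 26.8, 18.2 and 30.5 CPM in the controls and 5.25, 8.59 and 5.37 CPM in CFU-E Kit-lo. The highest CFU-E Kit-lo library lay well below the lowest control, and the log2 fold change was -1.97 (SE 0.26, adjusted p = 0.000314), a 3.92-fold fall. Of the 19 listed genes of Gq signaling, 17 were tested, 1 rose and 5 fell, against 12.1% and 9.83% of all genes. The median of the list was -0.44. *Gna14* and *Gna15*, alpha subunits of the same family, fell 3.29-fold and 3.18-fold, and *Gna11*, the closest relative of *Gnaq*, had a log2 fold change of -0.05 (SE 0.22, adjusted p = 0.883). Downstream, the phospholipase *Plcb4* fell 2.58-fold and *Itpr1*, the calcium channel that answers to its product, fell 1.82-fold. *Rgs18*, which turns Gq and Gi signals off, fell 2.87-fold. *Prkcd*, a protein kinase C, rose 1.92-fold (adjusted p = 0.0483), although its groups overlapped.

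*Ncs1* had 23.1, 17.2 and 20.6 CPM in the controls and 4.31, 4.42 and 1.57 CPM in CFU-E Kit-lo, the last from 30 counts. The groups were far apart, and the log2 fold change of -2.56 (SE 0.34, adjusted p = 0.000326), or 5.89-fold lower, was the largest of the 6. Of the 17 listed relatives and partners, 9 were tested, 2 rose and 3 fell, against 12.1% and 9.83% of all genes. The median of the list was -0.42. *Hpcal1*, a calcium sensor of the same family, fell 5.26-fold, and *Calm3*, a calmodulin gene, fell 1.52-fold, while *Itpr1* is shared with the Gq list. *Kcnip2*, a related calcium sensor, rose 8.28-fold from 1.38 ± 0.35 to 11.5 ± 2.76 CPM (SD, n = 3 each), and *Pi4kb*, the lipid kinase that Ncs1 binds, rose 1.57-fold.

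**Figure D4:**
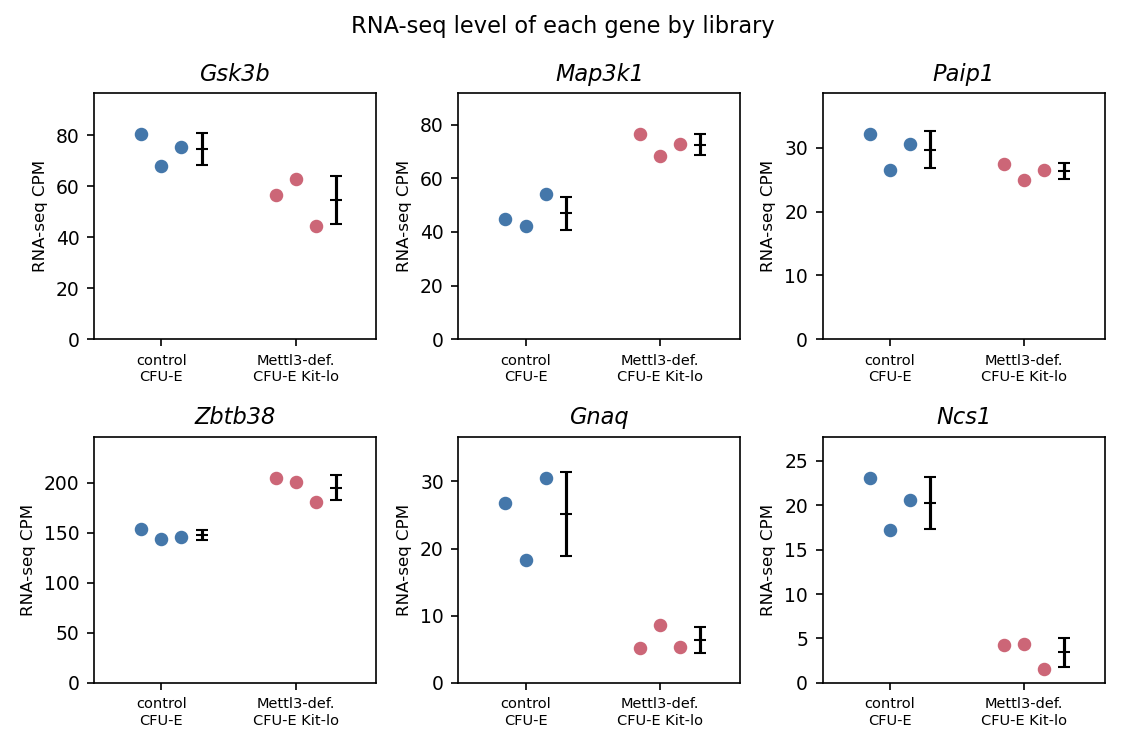
RNA-seq CPM of the 6 genes in each control CFU-E library (blue) and each library labelled *Mettl3*-deficient CFU-E Kit-lo (red), with the mean and SD of 3 libraries in black and axes that start at 0. *Gnaq* and *Ncs1* show the widest separation, *Map3k1* and *Zbtb38* are higher in CFU-E Kit-lo, and only *Paip1* overlaps.

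Close relatives of the 6 genes were not enriched to the same degree. The log2 ratios of IP over input of 11 close relatives ran from -2.25 to 1.69, all below the 2.43 of *Ncs1*, whose ratio was the smallest of the 6. *Gsk3a*, the other GSK3 gene, was at -2.03 (SE 0.36), where *Gsk3b* was at 4.71, and had a log2 fold change of 0.24 (SE 0.35, adjusted p = 0.652) in the RNA-seq. *Map3k2* was at -2.25 and *Map3k3* at 0.57, and their RNA-seq log2 fold changes of -0.15 (SE 0.26) and -0.79 (SE 0.34) were not called. *Paip2* and *Paip2b* were at 0.64 and 0.83, and *Paip2* had a log2 fold change of -0.32 (SE 0.10), below the required fold. *Zbtb33* had the highest ratio of the relatives, at 1.69 (SE 0.46), and *Zbtb4* was at 1.10. *Gna11* was at 0.87, *Gna14* at -0.21, *Gna15* at -0.57 and *Hpcal1* at 0.04. Of these 11 relatives, 4 fell in CFU-E Kit-lo, against 9.83% of all genes: *Gna14*, *Gna15* and *Hpcal1*, with ratios near or below 0, and *Paip2b*, with a ratio of 0.83. In the pathway lists, which also hold genes that are not close relatives, the highest ratio was 2.79 in the Gq list, above the 2.72 of *Gnaq*. The highest ratios of the other pathway lists ran from 0.72 to 1.69. As the 6 genes were chosen for high ratios, the gap to their close relatives is a description.

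Because *Gnaq* and *Ncs1* did not come in by rank alone, the count of changed genes among the 6 says little about strongly captured transcripts in general. The 100 genes with the largest ratios, again with a mean log2 CPM of 4 or more, were therefore examined as well, and they included all of the 6 but *Ncs1*. Of these, 8 rose and 7 fell in CFU-E Kit-lo, or 15% in all, against 10.9% higher and 10.7% lower (21.6% in all) of the 5385 genes that could have entered the list. Their median log2 fold change was -0.07, with quartiles at -0.32 and 0.19, against -0.04 for the eligible genes. Across the 10773 genes tested in both tables, which are not independent replicates, the ratio and the log2 fold change had a Pearson correlation of -0.03 and a Spearman correlation of -0.03. The RNA-seq change thus ran in both directions among strongly captured transcripts.

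**Figure D5:**
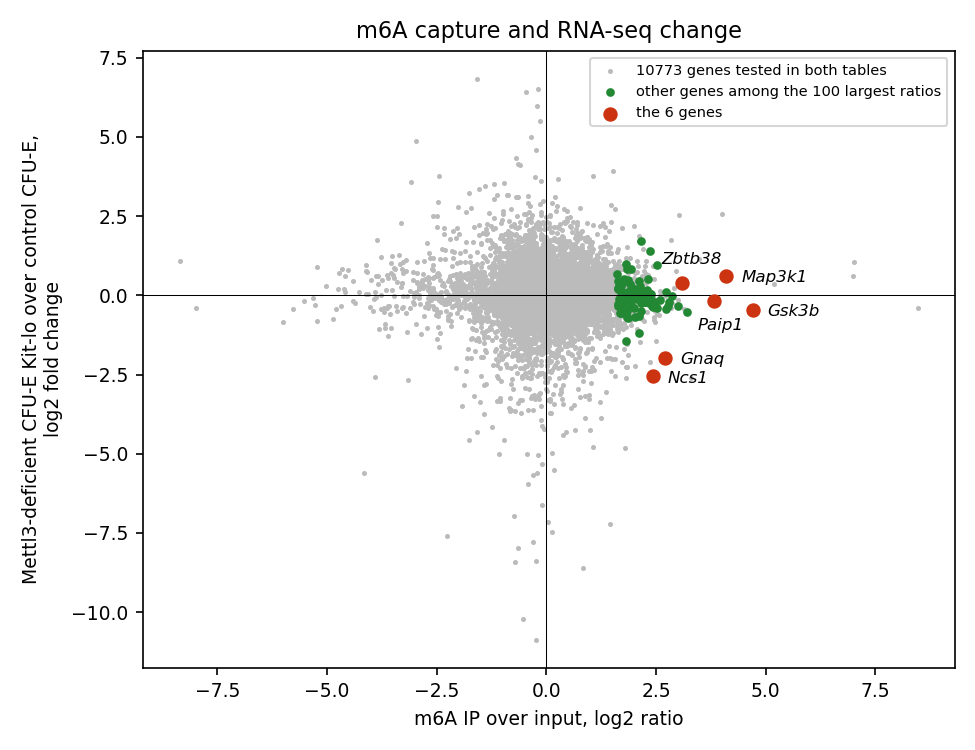
RNA-seq log2 fold change of CFU-E Kit-lo over control CFU-E (vertical) against the log2 ratio of IP over input (horizontal) for 10773 genes, with the 100 largest ratios in green and the 6 genes in red. The green points lie on both sides of 0, *Gnaq* and *Ncs1* lie lowest among the red points, and *Gsk3b*, farthest right of them, lies at -0.45.

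Finally, genes whose profile was most like the mean of the 6 were sought among 4730 genes over the 10 libraries, after centering each gene within its experiment. The highest Pearson correlations belonged to *Nras* (0.994), *Sept2* (0.993), *St13* (0.992), *Brd2* (0.991) and *Hspa14* (0.991). The 6 genes themselves had values from 0.769 for *Ncs1* to 0.986 for *Gsk3b*. A step up from input to IP is shared by construction with a mean of genes chosen for it. *Sept2*, for example, had a log2 ratio of 2.997 and an RNA-seq log2 fold change of -0.35 (SE 0.09, adjusted p = 0.0144), and *Hspa14* had 0.58 and -0.15 (SE 0.08, adjusted p = 0.184).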

How the data were processed

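RNA-seq (Smart-seq2, primed with oligo-dT) and m6A IP and input libraries (SLIM-seq) of sorted CFU-E were analyzed, 10 libraries in all, and 6 ProE samples were not analyzed here. The authors filtered reads with fastp 0.23.4, quantified transcripts with Kallisto 0.48.0 and summed them to genes with tximport, and they deposited estimated counts per gene with no normalization. All deposited counts were whole numbers. The submitters' processing notes name both mm10 and GRCm39, and the paper names mm10. Coordinates and transcript features were taken here from the GENCODE annotation of GRCm38, the assembly behind mm10, and motif windows were checked against the RefSeq sequence of that assembly. Whether strand or the molecular identifiers of SLIM-seq were used in counting is not stated. None of the 6 genes shares exonic bases with another annotated gene. PCR copies, where they were counted, are not independent molecules, so counting error alone does not set the precision.

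Groups and replicate numbers came from the labels. Each table was fitted in R 4.3.3 with edgeR 4.0.16 (TMM, filterByExpr, glmQLFit, glmQLFTest, no block), with Benjamini-Hochberg adjustment over all genes tested. The SE of a log2 fold change or log2 ratio is its size over the square root of F, a model value that draws on the spread of all genes. No 2 libraries of a group were alike within sampling noise (chi-square per degree of freedom 9.48 to 64.4). On simulated counts with 200 changed genes, edgeR recovered 100 of 100 genes with 4-fold changes in both designs. Of 2-fold changes it recovered 97 in the RNA-seq design and 46 in the m6A design. False calls numbered 9 and 6. The changed genes were drawn from those with a mean log2 CPM of 4 or more, and counts followed edgeR's trended dispersion. The check therefore does not cover a level as low as that of *Ncs1* in the m6A libraries. The alternatives were DESeq2 1.42.0, other normalizations and filters, other thresholds, a replicate block, leaving out each library, and, added after the data were seen, TMM without late erythroid and hemoglobin genes.

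The named genes are the 6, *Mettl3* and *Kit*, called members of the pathway lists, close relatives, the 10 largest ratios with a mean log2 CPM of 4 or more whose groups did not overlap, and the 5 most alike profiles (log2 CPM with a prior count of 2). *Akt1*, *Rbbp6* and *Uhrf1* were named after their values were seen. The 6 genes and all lists were chosen with earlier results of these data known. Figures were drawn with matplotlib 3.10.9.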

Additional observations from a re-analysis of the deposited data

How the results depend on the processing

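The RNA-seq log2 fold changes of the 6 genes kept their direction under all 17 alternatives. *Gnaq* stayed called in 17 (-2.22 to -1.82) and *Ncs1* in 17 (-2.76 to -2.20), and *Paip1* was called in 0. *Map3k1* was called in 14, and was lost in the test against a fold of 1.5 (0.62, adjusted p = 0.667) and in 2 of the fits that left out a library, which gave 0.55 to 0.73. With no fold threshold, *Gsk3b* (-0.45) and *Zbtb38* (0.40) were called too, although the adjusted p of *Gsk3b* rose above 0.05 with library-size scaling and without control replicate 1, control replicate 3 or CFU-E Kit-lo replicate 3. No fold threshold raised the calls over all genes from 2631 to 4128 (2024 lower), and among the 100 genes with the largest ratios to 18 higher and 23 lower. The test against a fold of 1.5 gave 1147 (665 higher and 482 lower), 3 higher and 3 lower. Without a minimum level for that list 13 were higher, with 200 genes 22 were lower, and leaving out a library gave 5 to 8 higher and 6 to 10 lower.

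In the pathway lists, the test against a fold of 1.5 left 1 called gene in the GSK3 list, 2 in the JNK list, 1 in the poly(A)-binding protein list and 2 in the *Ncs1* list. With no fold threshold 2 methyl-CpG genes were called. Leaving out a library gave 0 to 1 methyl-CpG genes and 3 to 5 genes of the *Ncs1* list.

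*Gsk3b* ranked 1 by ratio of IP over input under every alternative run. Leaving out a library gave log2 ratios of 4.45 to 4.97 for *Gsk3b*, 3.44 to 4.29 for *Paip1* and 2.06 to 2.86 for *Ncs1*, and wider ranges for *Map3k1* (3.45 to 4.79), *Zbtb38* (2.57 to 3.83) and *Gnaq* (2.17 to 3.50). Without input replicate 1 *Zbtb38* ranked 12 and *Gnaq* 23, and when either IP library was left out *Map3k1* fell below the minimum level. Genes higher in IP numbered 904 and genes lower 900. They were 1451 higher with upper-quartile scaling, 1783 higher and 1755 lower with the replicate block, and 164 to 1358 higher and 427 to 968 lower when a library was left out, the fewest without input replicate 1. Library-size and upper-quartile scaling moved the median ratio of all genes from 0.06 to 0.21 and 0.18. Same-numbered libraries deviated together with r of 0.034, -0.017 and -0.072 in the RNA-seq, so the number pairs nothing there and the block changed no call of the 6 genes. In the m6A table r was 0.205, with only 2 pairs. The longest transcript moved the 3′ UTR to 5515 bases in *Gsk3b*, with 8 GGACT, and to 1137 in *Paip1*. The cause of these shifts was not tested.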
